A study of Mus musculus with 18 samples.

Results

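MicroRNAs (miRNAs) of hippocampus and cerebellum were compared in mice that lack Cyrano, to see which differences between the 2 tissues remain without this RNA and whether the levels of miR-7 converge. The comparison used 6 of the 18 small RNA libraries of the series, 3 from hippocampus and 3 from cerebellum, all of the genotype labelled CyrKO (Cyrano-/-). Libraries were chosen by the genotype and tissue in their labels. The same tissues of wild-type (WT) mice, 3 libraries each, gave the tissue difference in the presence of Cyrano and share no library with the CyrKO comparison. The mice behind all 12 libraries were males of the C57BL/6J strain at an age of 1 month, and the design text names 3 biological replicates per genotype and tissue. Tissue was flash frozen, total RNA was isolated with Trizol, each library started from 5 ug, and RNAs of 18 to 32 nt were selected. Cyrano is a long RNA and is not read in such libraries, so the genotype was not checked on Cyrano itself.

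Cyrano (Oip5os1 in mouse) is a long noncoding RNA that is abundant in the brain and carries a conserved, highly complementary site for miR-7. Pairing to this site leads to the decay of miR-7, a process called target-directed miRNA degradation, and it acts on the loaded guide strand rather than on the hairpin or the passenger strand. miR-7 in turn acts on the circular RNA Cdr1as, which also carries a site for miR-671. Each hairpin yields a guide strand, which is kept in the silencing complex, and a passenger strand, which is mostly discarded, so the passenger serves as a rough readout of how much hairpin is made.

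The miR-7 strands are shown first because the comparison turns on them. Mature sequences are those of RefSeq (GRCm38.p6), written 5′ to 3′, with the seed (bases 2 to 8, the part that pairs with targets) in capitals. A RefSeq mature sequence was matched for 630 of the 746 miRNAs tested. The guides are shared by 3 hairpins, and the passengers tell the hairpins apart.
miR-7a-5p: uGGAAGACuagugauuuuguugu
miR-7b-5p: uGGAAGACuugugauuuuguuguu
miR-7a-1-3p: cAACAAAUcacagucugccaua
miR-7a-2-3p: cAACAAGUcccagucugccaca
miR-7b-3p: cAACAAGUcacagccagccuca
miR-7a-5p comes from both Mir7-1 (chr13:58392779-58392886, minus strand, in an intron of Hnrnpk) and Mir7-2 (chr7:78888277-78888373, plus strand, in no other annotated gene). miR-7b-5p comes from Mir7b (chr17:56242988-56243098, plus strand, in no other annotated gene). The guides have the same seed. Counted from the 5′ end of miR-7a-5p, they differ by A10U, and miR-7b-5p is 24 nt long against 23 nt. The passengers miR-7a-2-3p and miR-7b-3p share a seed, and miR-7a-1-3p has another.

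Depth was 8819285 to 15305829 miRNA reads in the CyrKO libraries and 8591172 to 12209429 in the WT libraries. miR-124-3p took 18.6% to 20.1% of the reads in CyrKO cerebellum and 11.6% to 12.5% in CyrKO hippocampus, and the 10 most abundant miRNAs took 56.8% to 57.6% and 49.2% to 50.3%. Tissue differences therefore depend on the scaling. The TMM factors, which scale libraries so that most miRNAs balance, were 0.79 to 0.86 in the cerebellum libraries and 1.18 to 1.25 in the hippocampus libraries. Scaling by library totals alone moved the median tissue difference up by 0.58 on the log2 scale. Levels below are CPM (reads of a miRNA per 1000000 miRNA reads of its library, without TMM), and log2 differences are hippocampus minus cerebellum from the edgeR fit with TMM unless stated.

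Without Cyrano the miR-7 guides were among the most abundant miRNAs of both tissues, and their levels lay close together. miR-7a-5p stood at 19644, 20987 and 19447 CPM in the 3 CyrKO cerebellum libraries and at 26072, 24296 and 25304 CPM in the 3 CyrKO hippocampus libraries. Means were 20026 ± 838 and 25224 ± 891 CPM (SD, n = 3 each). On this scale every hippocampus library was above every cerebellum library, an order and separation shared by 58.8% of all tested miRNAs (77.3% had CyrKO tissues that did not overlap in either order). The fold between the means was 1.26, against 8.70 between the WT tissues, where cerebellum had 438, 542 and 507 CPM and hippocampus 4659, 3752 and 4532 CPM. By rank, miR-7a-5p was miRNA 12 or 13 in each CyrKO cerebellum library and 8 in each CyrKO hippocampus library. In WT it ranked 111 to 122 in cerebellum and 39 to 45 in hippocampus.

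miR-7b-5p, the guide from the other miR-7 gene, followed the same course. It stood at 7473, 8473 and 8460 CPM in CyrKO cerebellum and at 10284, 10198 and 9855 CPM in CyrKO hippocampus. The fold between the means was 1.24, against 8.58 in WT, and the miRNA ranked 23 to 26 in all 6 CyrKO libraries. In WT its rank was 177 to 198 in cerebellum and 73 to 87 in hippocampus.

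The direction of the small difference that remained was set by the scaling. With TMM, miR-7a-5p was lower in CyrKO hippocampus by a log2 difference of -0.25 (SE 0.11, adjusted p = 0.0477), and miR-7b-5p by -0.26 (SE 0.11, adjusted p = 0.0414). With library totals alone both were higher in hippocampus, by 0.33 (adjusted p = 0.00463) and 0.31 (adjusted p = 0.0127). After TMM scaling the cerebellum libraries held 22615 to 26581 CPM of miR-7a-5p and the hippocampus libraries 19823 to 21133, so the groups were apart in the opposite order to the unscaled values. The share of all 746 tested miRNAs that passed the threshold of 0.05 in this contrast was 72.1%, 38.9% higher in hippocampus and 33.2% higher in cerebellum.

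The TMM calls on the guides were also close to the threshold. For miR-7a-5p the adjusted p rose to 0.153 without CyrKO cerebellum replicate 2 (log2 difference -0.17), to 0.221 without CyrKO hippocampus replicate 2 (-0.16), to 0.0503 without CyrKO hippocampus replicate 1 (-0.28), and to 0.0651 and 0.0793 without WT hippocampus replicates 1 and 3 (-0.20 each). For miR-7b-5p it passed 0.05 without any 1 of the 3 CyrKO hippocampus libraries (0.0546, 0.143 and 0.0515, log2 differences -0.29, -0.21 and -0.29). The same held without CyrKO cerebellum replicate 2 or 3 (0.138 and 0.0971, -0.20 and -0.23) and without WT hippocampus replicate 1 or 3 (0.064 and 0.0762, -0.22 each). A difference between the CyrKO tissues of either sign was thus small beside the WT differences of 2.57 and 2.55.

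**Figure D1:**
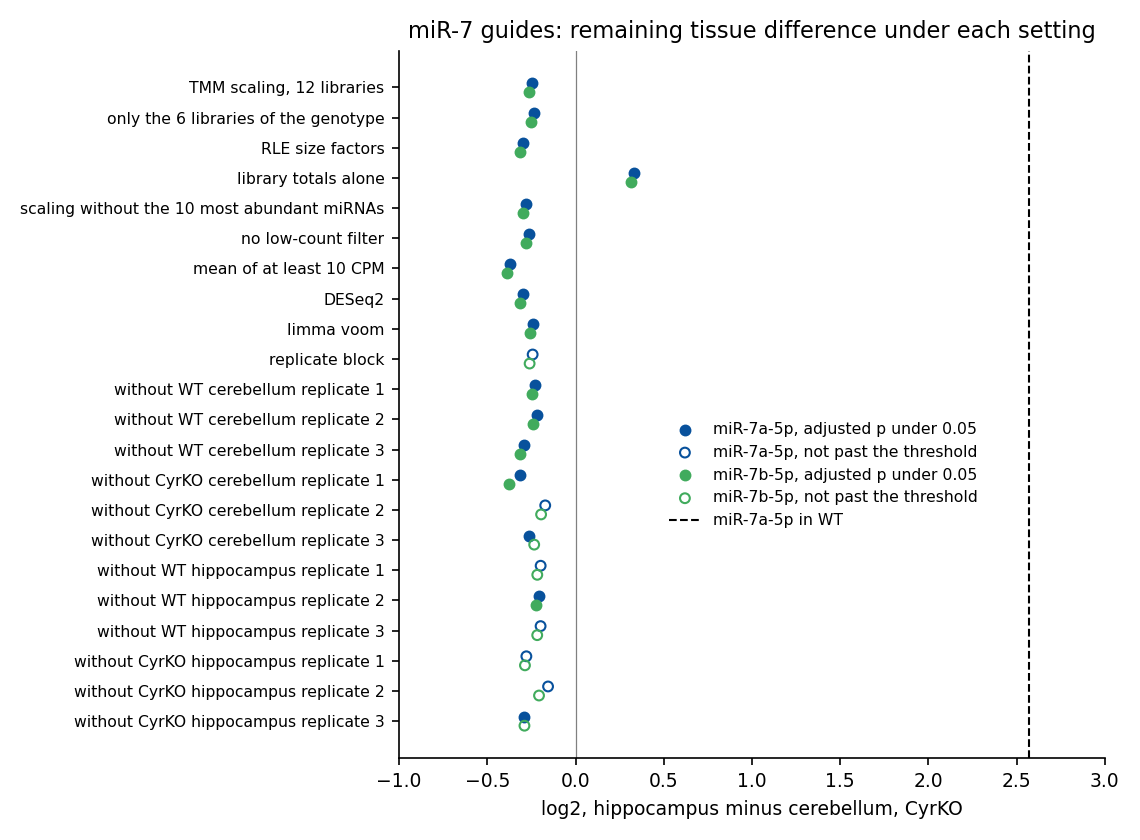
CyrKO tissue difference of miR-7a-5p (blue) and miR-7b-5p (green) on the log2 scale, hippocampus minus cerebellum, under each scaling, filter, tool and left-out library. Filled points passed an adjusted p of 0.05 and open points did not. All points lie near 0, to the right of it only with library totals alone (0.33 and 0.31), and far from the dashed line that marks miR-7a-5p in WT (2.57).

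The loss of the tissue difference itself did not depend on the scaling. Taking the CyrKO minus the WT tissue difference, the change was -2.82 for miR-7a-5p (SE 0.15, adjusted p = 3.17e-09) and -2.81 for miR-7b-5p. Leaving out each of the 12 libraries in turn gave -2.92 to -2.72 for miR-7a-5p and -2.94 to -2.72 for miR-7b-5p. In linear terms the gap between the tissues did not close on the unscaled CPM: hippocampus exceeded cerebellum by 3818 CPM of miR-7a-5p in WT (SE 285) and by 5198 CPM in CyrKO (SE 706). On TMM-scaled CPM the same differences were 2978 (SE 265) and -3827 (SE 1224). Convergence therefore describes the ratio of the tissues, while the linear difference took either sign with the scaling.

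**Figure D2:**
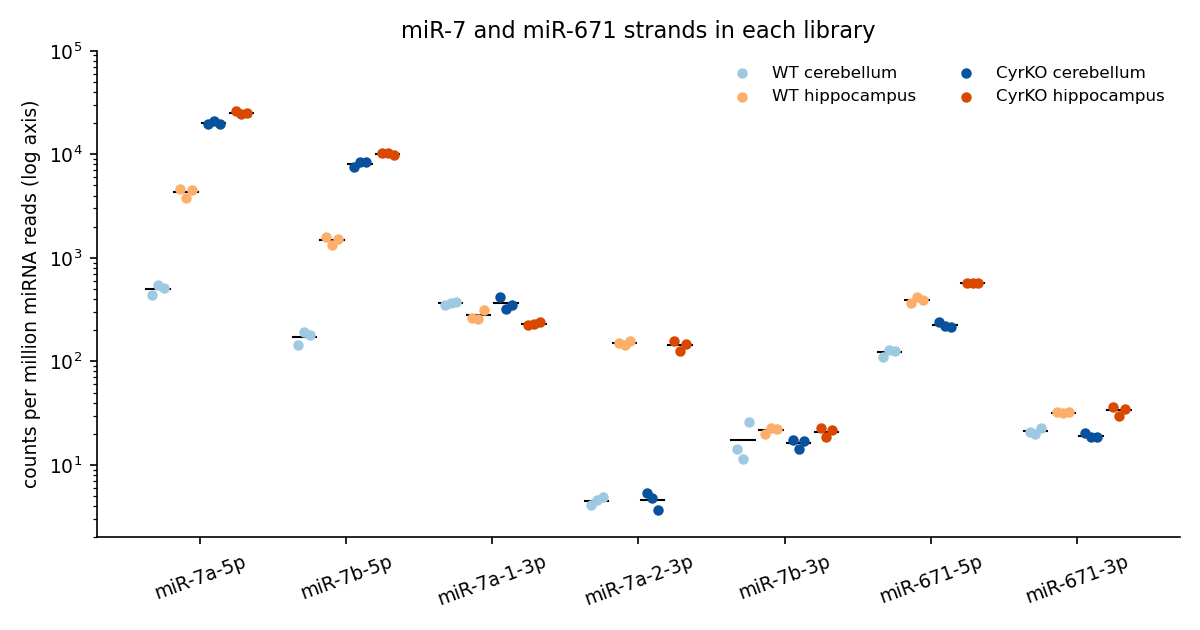
Level of each miR-7 and miR-671 strand in each library, in CPM on a log axis. Points are the 3 libraries of WT cerebellum, WT hippocampus, CyrKO cerebellum and CyrKO hippocampus, and bars are means. The guides miR-7a-5p and miR-7b-5p lie together in the 2 CyrKO tissues, while miR-7a-2-3p stays near 4.61 CPM in CyrKO cerebellum and 144 CPM in CyrKO hippocampus.

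Both miR-7a passengers kept the direction of their WT tissue differences, and miR-7b-3p had no called tissue difference in either genotype. miR-7a-2-3p, from Mir7-2, had 5.40, 4.77 and 3.66 CPM in CyrKO cerebellum and 159, 127 and 146 CPM in CyrKO hippocampus, a log2 difference of 4.38 (SE 0.15, adjusted p = 4.39e-13). The WT difference was 4.51. Only 169 reads of this strand were counted over the 3 CyrKO cerebellum libraries, against 4933 over the 3 hippocampus libraries. The change between genotypes was -0.13 (adjusted p = 0.968).

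miR-7a-1-3p, from Mir7-1 in the Hnrnpk intron, went the other way. It had 420, 324 and 347 CPM in CyrKO cerebellum and 224, 231 and 240 CPM in CyrKO hippocampus, with no overlap and cerebellum above, as for 18.5% of all tested miRNAs. The log2 difference was -1.23 (SE 0.11, adjusted p = 6.96e-08), against -0.93 in WT, and it was -0.65 with library totals alone. miR-7b-3p had 17.4, 14.3 and 16.9 CPM in CyrKO cerebellum and 22.6, 18.6 and 21.6 CPM in CyrKO hippocampus, a log2 difference of -0.20 that did not pass (SE 0.21, adjusted p = 0.405) and was 0.37 with library totals alone. For neither strand did the change between genotypes pass (adjusted p = 0.942 and 0.997).

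Ratios of strands within a library do not depend on the scaling between libraries. The tissue differences of 7 such ratios were tested in each genotype by exact permutation of the libraries, two-sided. With 3 libraries a tissue the lowest p such a permutation test can give is 0.1, so none of the 14 tests could pass 0.05 (adjusted over the 14, p = 0.1 becomes 0.127). In CyrKO there were 508 ± 81.3 miR-7b-5p reads per read of miR-7b-3p in cerebellum and 487 ± 53.2 in hippocampus (SD, n = 3), and the libraries overlapped (exact permutation p = 0.7). In WT the same ratio was 11.3 ± 5.14 in cerebellum and 69.3 ± 11.6 in hippocampus, with no overlap (exact permutation p = 0.1).

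For miR-7a the passengers of both hairpins were summed, because the guide cannot be assigned to one of them. Their summed level in CyrKO was 368 ± 50.8 CPM in cerebellum and 375 ± 15.4 CPM in hippocampus, nearly all of it miR-7a-1-3p in cerebellum. There were 55.2 ± 8.87 miR-7a-5p reads per passenger read in CyrKO cerebellum and 67.3 ± 1.43 in CyrKO hippocampus, with no overlap between libraries (log2 ratio difference 0.30, exact permutation p = 0.1). The WT ratios were 1.34 ± 0.110 and 10.03 ± 1.05 (log2 ratio difference 2.90). The tissue gap in this ratio was thus a small part of its WT size in CyrKO, though the libraries of the tissues stayed apart.

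The choice of passenger mattered for miR-7a. Set against miR-7a-1-3p alone, the log2 ratio was higher in CyrKO hippocampus by 0.98, and set against miR-7a-2-3p alone it differed by -4.64. The ratio of the passengers to each other hardly moved with the genotype, with a tissue log2 difference of 5.62 in CyrKO and 5.46 in WT. The ratio of guides to each other was close between the tissues of a genotype: 2.47 ± 0.165 reads of miR-7a-5p per read of miR-7b-5p in CyrKO cerebellum and 2.50 ± 0.0989 in CyrKO hippocampus, with overlap (exact permutation p = 0.9). The WT values were 2.88 ± 0.130 and 2.90 ± 0.0618, and every WT library of either tissue lay above every CyrKO library.

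**Figure D3:**
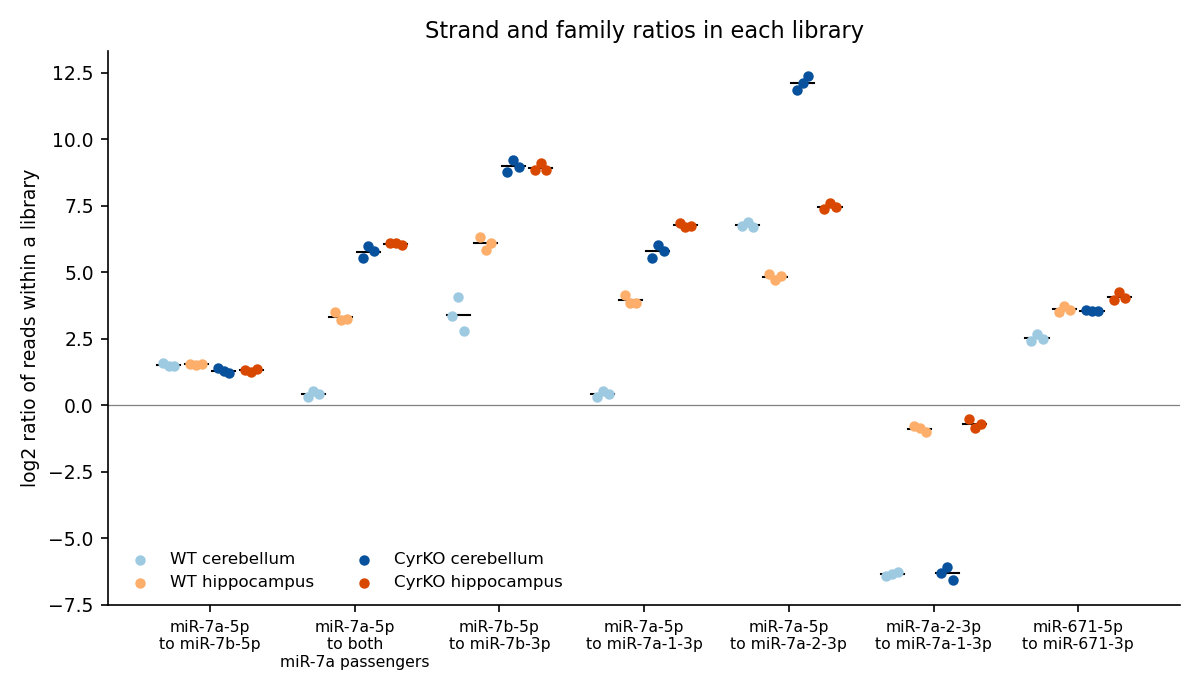
Log2 ratio of reads of 2 strands within each library, for 7 ratios and the same 4 groups of 3 libraries, with bars at the means. The CyrKO tissues overlap for miR-7b-5p to miR-7b-3p and for miR-7a-5p to miR-7b-5p, while miR-7a-2-3p to miR-7a-1-3p keeps a tissue gap of 5.62 in CyrKO and 5.46 in WT.

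miR-671-5p, which directs cutting of Cdr1as, was higher in hippocampus in CyrKO as in WT. It had 242, 217 and 217 CPM in CyrKO cerebellum and 569, 568 and 568 CPM in CyrKO hippocampus, a log2 difference of 0.76 (SE 0.09, adjusted p = 1.67e-06; 1.33 with library totals alone). The WT difference was 1.13 and the change of -0.37 did not pass (adjusted p = 0.765). miR-671-3p had a log2 difference of 0.23 that did not pass (SE 0.11, adjusted p = 0.0764). It passed with library totals alone (0.81, adjusted p = 7.35e-06) and without WT cerebellum replicate 2 (0.26, adjusted p = 0.0412), WT hippocampus replicate 1 or 3 (0.28 each, adjusted p = 0.0462 and 0.0388) or CyrKO hippocampus replicate 2 (0.38, adjusted p = 0.0119). The ratio of the 5p to the 3p strand was 11.7 ± 0.209 in CyrKO cerebellum and 17.0 ± 1.91 in CyrKO hippocampus, with no overlap (log2 ratio difference 0.53, exact permutation p = 0.1). In WT the same ratio was 5.77 ± 0.577 and 12.2 ± 0.892, also with no overlap (log2 ratio difference 1.08), so the gap in this ratio was smaller in CyrKO, a difference that was not tested.

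Most other tissue differences remained without Cyrano. Of 746 miRNAs tested, 538 (72.1%) differed between the CyrKO tissues, 290 higher in hippocampus and 248 higher in cerebellum, and 290 (38.9%) of those tested were called at 2-fold or more, 163 (21.8%) toward hippocampus and 127 (17%) toward cerebellum. In WT 522 (70%) differed, 280 (37.5%) higher in hippocampus and 242 (32.4%) higher in cerebellum. A total of 473 were called in the same direction in both genotypes, which is 87.9% of the CyrKO calls and 90.6% of the WT calls. Scaled by library totals, 545 were called in CyrKO, 419 of them higher in hippocampus and 126 higher in cerebellum, so the split between directions rests on the scaling.

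The 2 miRNAs called in opposite directions were miR-7a-5p and miR-7b-5p. Scaled by library totals, none was called in opposite directions, as the guides then kept the WT sign. Another 63 were called in CyrKO only and 47 in WT only, and in none of these 110 did the change between genotypes pass, so the data do not show that they differ. Across the 746 miRNAs the CyrKO and WT tissue differences had a Pearson r of 0.966, and 0.970 without the guides. The points of that comparison are miRNAs, which share libraries and scaling within a genotype.

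Of the 300 miRNAs (40.2% of those tested) with a called WT tissue difference of at least 2-fold, 282 were called in the same direction in CyrKO, 249 of them again at 2-fold or more. The 18 others were the miR-7 guides and 16 miRNAs that averaged at most 3.90 CPM in either WT tissue. A set of 253 miRNAs had a mean of at least 100 CPM over the WT and CyrKO groups of both tissues. Among them the 95% interval of the change lay within 2-fold either way for 231 and within 1.5-fold for 191. Over all 746 these counts were 490 and 304, so for those outside the 490 the interval reached 2-fold or beyond. The guides are among these through the size of their change. The median absolute change was 0.17. The largest was that of miR-7080-5p, named because of its size, at -3.15 (SE 1.18, adjusted p = 0.942), a strand with at most 0.131 CPM in any CyrKO cerebellum library.

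**Figure D4:**
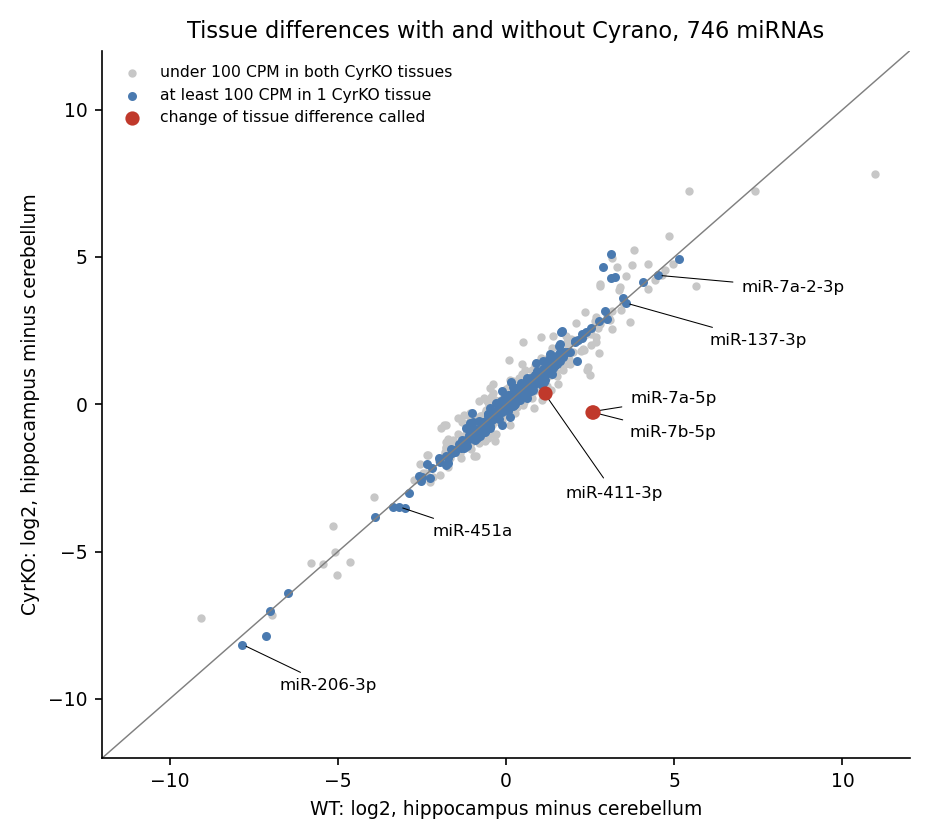
Tissue difference on the log2 scale, hippocampus minus cerebellum, in WT (x axis) and CyrKO (y axis) for 746 miRNAs. Grey points are below 100 CPM in both CyrKO tissues, blue points are above it in at least 1, and red points are the 3 miRNAs whose change passed the threshold. Points follow the line of equality, and miR-7a-5p and miR-7b-5p lie apart at 2.57 and 2.55 in WT and -0.25 and -0.26 in CyrKO.

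A change of the tissue difference passed for 3 miRNAs (0.402% of those tested), and 35 had an unadjusted p under 0.05. Beside the guides this was miR-411-3p, the 3p strand of a hairpin in the imprinted miR-379/410 cluster (Mir411, chr12:109710175-109710256, plus strand). It had 411, 366 and 355 CPM in CyrKO cerebellum and 761, 731 and 694 CPM in CyrKO hippocampus. Its tissue log2 difference was 0.37 in CyrKO (SE 0.11, adjusted p = 0.00721) and 1.14 in WT, a change of -0.77 (adjusted p = 0.0387). The call was lost without CyrKO hippocampus replicate 2 (-0.72, adjusted p = 0.111).

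The next lowest p-values included further strands of that cluster. miR-409-3p had a tissue difference of 1.46 in CyrKO and 2.10 in WT (change -0.64, adjusted p = 0.0785), and miR-379-3p of 0.42 and 1.09 (change -0.67, adjusted p = 0.083). miR-379-3p has the seed of miR-411-3p, as its sequence shows, and miR-409-3p has another.
miR-411-3p: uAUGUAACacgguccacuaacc
miR-379-3p: uAUGUAACaugguccacuaacu
miR-409-3p: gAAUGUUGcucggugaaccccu
The other 3 in this group, miR-666-3p, miR-382-3p and miR-298-5p, had larger differences in CyrKO than in WT (1.41 against 0.90, 2.11 against 0.51 and 1.70 against 1.30), and none of these changes passed (adjusted p = 0.347, 0.765 and 0.765). Of the strands of this cluster, 34 on the list used here were tested, and the cluster holds further strands that were not on it. In CyrKO 28 of the 34 were higher in hippocampus and 3 higher in cerebellum, beside 38.9% and 33.2% of all miRNAs tested. The median log2 difference was 0.81, against 1.01 in WT and 0.10 for all miRNAs tested in CyrKO. The list for the neighbouring miR-127 and miR-433 cluster had 13 of 15 tested strands higher in hippocampus and none higher in cerebellum, with a median of 0.67, and its most abundant strand, miR-127-3p, differed by 0.46 (SE 0.10, adjusted p = 0.000529). By library totals the counts for these lists were 31 of 34 and 15 of 15 higher in hippocampus, beside 419 of all 746.

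The cerebellum side was led by miRNAs nearly absent from the hippocampus. miR-206-3p, a relative of the muscle miRNA miR-1, had 954, 790 and 939 CPM in CyrKO cerebellum and 4.92, 3.97 and 5.02 CPM in CyrKO hippocampus. The log2 difference was -8.15 (SE 0.17, adjusted p = 1.48e-15), with -7.84 in WT. Its hairpin lies in an exon of the long noncoding RNA Gm28653 (chr1:20679010-20679082, plus strand).

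The miR-216 and miR-217 hairpins, clustered on chromosome 11, came next. miR-217-5p averaged 114 CPM in CyrKO cerebellum and 0.691 CPM in hippocampus (log2 difference -7.85, SE 0.33), miR-216b-5p 139 and 1.55 CPM (-7.03), and miR-216a-5p 217 and 3.81 CPM (-6.40). All 3 had libraries wholly apart with cerebellum above, as did every miRNA named in this paragraph and the next. Over all tested miRNAs 18.5% had this order. The 12 largest calls per direction were picked among strands with libraries apart, so for them this is no further result. Mir216a and Mir217 lie in an intron of Gm12082 (chr11:28757012-28757083 and chr11:28763728-28763835). The sequences show that no 2 members of the cluster have the same seed.
miR-206-3p: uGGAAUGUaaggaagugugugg
miR-216a-5p: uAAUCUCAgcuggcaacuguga
miR-216b-5p: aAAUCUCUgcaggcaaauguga
miR-217-5p: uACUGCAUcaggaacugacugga

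At high level the cerebellum side was led by miR-195a-5p and miR-497-5p, neighbours on chromosome 11 with the seed of the miR-15/16 family, which acts on cell cycle genes. miR-195a-5p had 12246, 10331 and 10478 CPM in CyrKO cerebellum and 2113, 2018 and 2020 CPM in CyrKO hippocampus (log2 difference -3.004, SE 0.10, adjusted p = 2.38e-13). miR-497-5p averaged 7010 and 1960 CPM (-2.42, SE 0.11), and its passenger miR-497-3p differed by -3.82. miR-484 (5188 and 1398 CPM, -2.47), miR-320-3p (3723 and 988 CPM, -2.49) and miR-194-5p (1636 and 404 CPM, -2.60) were also higher in cerebellum. The change from WT to CyrKO was at most 0.24 in size for these 6 strands, and passed for none.
miR-195a-5p: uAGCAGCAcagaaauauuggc
miR-497a-5p (miR-497-5p in the counts): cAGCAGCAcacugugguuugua

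Among strands with at least 100 CPM in 1 CyrKO tissue and libraries close together, the hippocampus side was led by miR-344d-3p, miR-7a-2-3p and miR-551b-3p. miR-344d-3p rose from a mean of 3.52 CPM in cerebellum to 158 CPM in hippocampus (log2 difference 4.94, SE 0.26). miR-551b-3p had 115, 149 and 150 CPM in CyrKO cerebellum and 3701, 3704 and 3691 CPM in CyrKO hippocampus (4.17, SE 0.12, adjusted p = 4.17e-14), with 4.06 in WT. miR-137-3p, a neuronal miRNA linked to synaptic genes, had 613, 645 and 634 CPM in CyrKO cerebellum and 10242, 9891 and 10446 CPM in CyrKO hippocampus (3.44, SE 0.09, adjusted p = 2.75e-14), with 3.56 in WT.

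Both strands of the miR-139 hairpin, which lies in an intron of the phosphodiesterase gene Pde2a (chr7:101475376-101475443), were higher in hippocampus. miR-139-5p differed by 2.83 (375 and 3976 CPM) and miR-139-3p by 3.16 (11.1 and 147 CPM). miR-3085-3p (3.62), miR-3059-5p (2.89) and miR-3106-5p (2.59) were higher as well, with 212, 218 and 217 CPM in hippocampus. Their libraries were apart, which the choice of the 12 largest calls required.
miR-551b-3p: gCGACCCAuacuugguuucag
miR-137-3p: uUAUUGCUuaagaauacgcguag
miR-139-5p: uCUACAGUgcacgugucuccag

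The remaining 3 of the 12 largest differences toward hippocampus, miR-448-3p, miR-1264-3p and miR-1264-5p, varied widely between libraries. miR-448-3p, whose hairpin lies in an intron of the serotonin receptor gene Htr2c (chrX:147158210-147158321), had 8.64, 1.11 and 1.25 CPM in CyrKO cerebellum and 43.0, 206 and 147 CPM in CyrKO hippocampus. Its log2 difference was 4.66 (SE 1.70, adjusted p = 0.0359), and the call was lost without CyrKO cerebellum replicate 2 or 3 (adjusted p = 0.103 and 0.104), CyrKO hippocampus replicate 2 or 3 (0.0747 and 0.0654) or WT hippocampus replicate 1 (0.052). miR-1264-3p differed by 4.30 (SE 1.38, adjusted p = 0.0211), lost without CyrKO cerebellum replicate 2 or 3 (0.0684 and 0.0702), and miR-1264-5p by 4.33 (SE 1.12, adjusted p = 0.00782).

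Htr2c is strongly expressed in the choroid plexus, and miRNAs of choroid plexus and ciliated cells moved with these libraries. The summed level of the 9 listed strands was 5939, 17153 and 12714 CPM in CyrKO hippocampus replicates 1 to 3 and 8644 to 10663 CPM in CyrKO cerebellum. It was lowest in the hippocampus library with the least miR-448-3p, and none of the 9 was at 0 in every CyrKO library. Of the 9, 5 were higher in hippocampus and 1 higher in cerebellum, beside 38.9% and 33.2% of all miRNAs tested. miR-34c-5p and miR-34b-5p, of ciliated cells, differed by 2.47 (SE 0.64) and 2.46 (SE 0.66), while miR-204-5p, abundant in the choroid plexus, did not pass (-0.60, SE 0.53, adjusted p = 0.332). The part of choroid plexus tissue in these results was not tested. In whole tissue, fewer cells of a type and less RNA per cell cannot be told apart.

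Other miRNAs have been reported as targets of directed degradation in other settings. All 6 that were listed and tested were higher in CyrKO hippocampus, with a median of 1.47, and 1.54 in WT, where 38.9% of all miRNAs tested were higher in CyrKO hippocampus and their median was 0.10. For none did the change between genotypes pass. The call on 1 of them, miR-322-5p (1.19, SE 0.35, adjusted p = 0.0142), was lost without CyrKO cerebellum replicate 1 (adjusted p = 0.0641) or CyrKO hippocampus replicate 3 (adjusted p = 0.0549). miR-222-3p had 816, 775 and 792 CPM in CyrKO cerebellum and 6722, 5886 and 6658 CPM in CyrKO hippocampus (2.44, SE 0.08, adjusted p = 3.64e-13), and miR-221-3p differed by 2.26 (SE 0.11). miR-29b-3p, a well known case, had 9125, 9754 and 8942 CPM in CyrKO cerebellum and 39279, 37780 and 39441 CPM in CyrKO hippocampus (1.49, SE 0.08, adjusted p = 1.37e-10). Its WT difference was 1.47.

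miR-29a-3p and miR-29c-3p, which share the seed of miR-29b-3p, differed by 0.88 each. The miR-29 family is known to rise as neurons mature. The change from WT to CyrKO was at most 0.07 in size over the 3 members.
miR-222-3p: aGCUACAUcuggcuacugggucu
miR-221-3p: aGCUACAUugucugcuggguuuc
miR-29a-3p: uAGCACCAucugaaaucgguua
miR-29b-3p: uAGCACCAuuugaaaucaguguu
miR-29c-3p: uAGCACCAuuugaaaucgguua

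Lists for the tissues were chosen with earlier results of these data known, so they are no check of the tissue labels. Of 10 tested strands listed for cerebellum, 9 were higher in CyrKO cerebellum and none higher in hippocampus (median -2.80, against -2.73 in WT). Over all miRNAs tested, 33.2% were higher in cerebellum and 38.9% higher in hippocampus. Of 9 listed for hippocampus and forebrain, 7 were higher in hippocampus, 1 was higher in cerebellum and 1 did not pass (median 2.26 in both genotypes). The exception was miR-26a-5p, with means of 72242 CPM in cerebellum and 38125 CPM in hippocampus (-1.50, SE 0.12). miR-138-5p, a miRNA of dendrites, was higher in hippocampus by 1.47 and miR-218-5p by 1.14.

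Of 10 listed neuronal strands, 4 were higher in hippocampus and 5 higher in cerebellum, beside 38.9% and 33.2% of all miRNAs tested. The hippocampus share is near that background. miR-124-3p, the most abundant miRNA of neurons, differed by -1.26 (SE 0.10) and miR-9-5p by -0.76 (SE 0.10), while miR-125b-5p differed by 0.51 (SE 0.09). By library totals miR-124-3p differed by -0.69 and miR-9-5p by -0.19. Of 5 miRNAs induced by neuronal activity, 4 were higher in hippocampus, among them miR-212-3p (1.02, SE 0.10) and miR-134-5p (0.39, SE 0.10). With library totals alone all 5 were higher there, beside 419 of all 746 miRNAs. miR-132-3p, from the same transcript as miR-212, did not pass under TMM (0.15, SE 0.09, adjusted p = 0.152) and passed with library totals alone (0.72, adjusted p = 3.36e-06).

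Listed strands of several broadly expressed families were higher in cerebellum, beside 33.2% of all miRNAs tested. The counts were 5 of 5 miR-30 strands (median -1.21), 6 of 7 let-7 guides (median -0.92) and 4 of 4 miR-181 strands (median -0.74). miR-30d-5p differed by -1.82, let-7g-5p by -1.44 and miR-181a-5p by -1.55. With library totals alone the calls toward cerebellum were 4 of 5, 6 of 7 and 2 of 4, beside 126 of all 746. Under that scaling 1 let-7 guide and 1 miR-181 strand were called toward hippocampus, beside 419 of all 746. Of 11 tested strands of the miR-17~92 group, 2 were higher in hippocampus, among them miR-17-5p (0.42), and 4 higher in cerebellum. Over all miRNAs tested these shares were 38.9% and 33.2%, so the cerebellum share is near that background. With library totals alone the counts were 5 and 1, beside 419 and 126 of all 746.

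Some low strands had large differences. The counts here stand beside 38.9% of all miRNAs tested called toward hippocampus and 33.2% toward cerebellum. All 3 strands of the miR-183 cluster, known from sensory cells, were higher in cerebellum, with miR-96-5p at 79.0 CPM in cerebellum and 2.70 CPM in hippocampus (-5.43, SE 0.22), miR-182-5p at 48.7 and 1.31 CPM and miR-183-5p at 19.9 and 0.715 CPM. Of the Hox cluster miRNAs, which mark posterior position in the embryo, 3 of 3 were higher in cerebellum, miR-10b-5p by 20.2 against 3.43 CPM (-3.15) and miR-10a-5p by 7.63 against 3.14 CPM (-1.83). Of 5 strands of the miR-200 group, 3 were higher in hippocampus, with miR-200a-3p at 69.6, 119 and 27.3 CPM in hippocampus and at most 2.68 CPM in each cerebellum library, and 2 were higher in cerebellum, among them miR-200c-3p (-1.81).

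**Figure D5:**
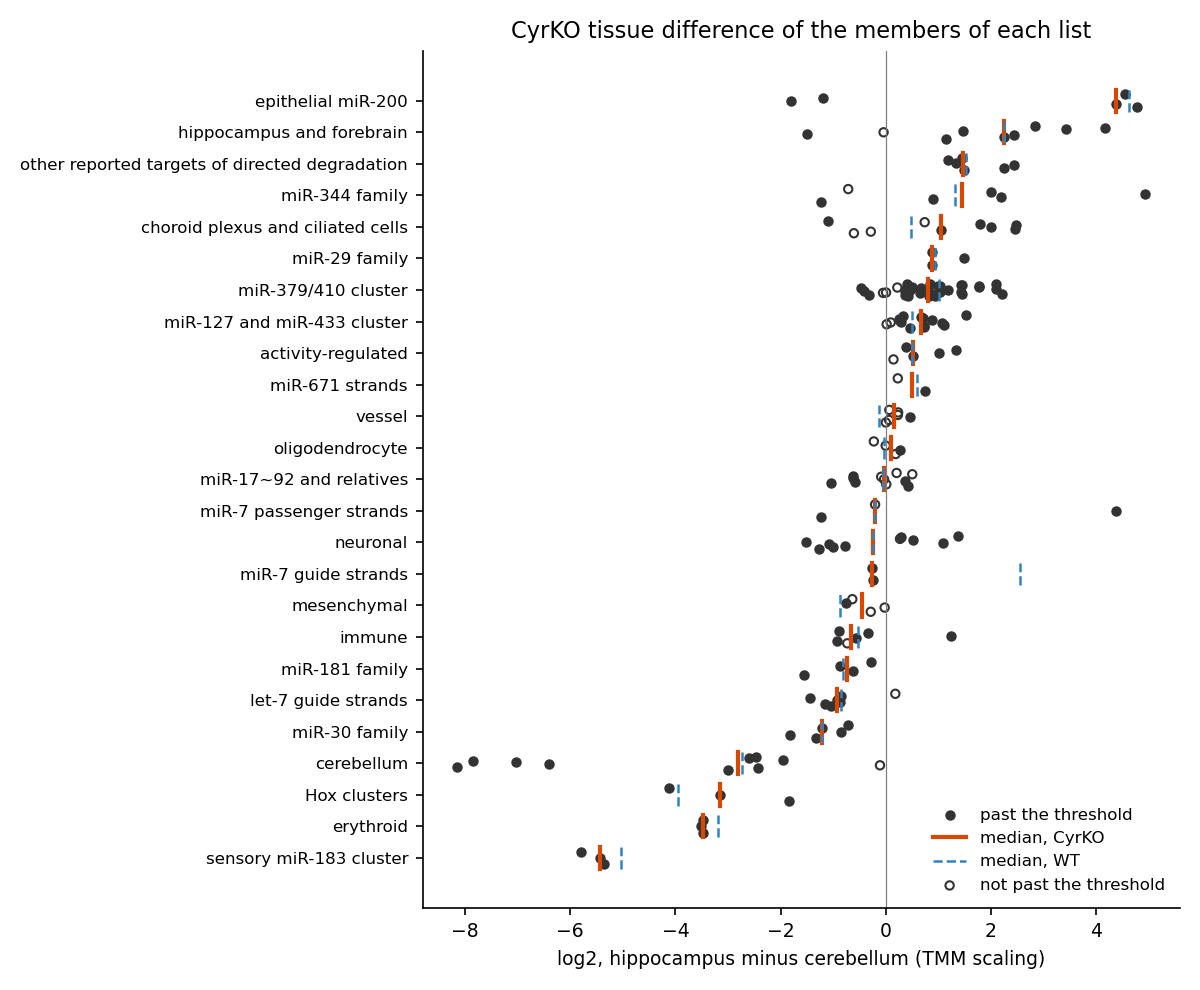
CyrKO tissue difference on the log2 scale, hippocampus minus cerebellum, of every tested member of 25 lists, ordered by median. Filled points passed an adjusted p of 0.05, open points did not, orange bars are CyrKO medians and dashed blue bars WT medians. The 2 medians lie close together for most lists, and for the miR-7 guides they are -0.25 and 2.56.

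Markers of other cells gave the following background. The erythroid miRNAs miR-451a, miR-144-3p and miR-144-5p were all higher in CyrKO cerebellum (median -3.48), beside 33.2% of all miRNAs tested. miR-451a had 22574, 24185 and 14324 CPM in CyrKO cerebellum and 3162, 2592 and 2517 CPM in CyrKO hippocampus (-3.47, SE 0.55, adjusted p = 0.000451). Their summed level was 16566 to 27991 CPM in CyrKO cerebellum and 2864 to 3574 CPM in CyrKO hippocampus, and it ranged from 6326 to 32949 CPM among the WT cerebellum libraries. Residual blood in the dissected tissue was not tested as a source of these reads.

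Oligodendrocyte and vessel miRNAs differed little under TMM. Of 4 oligodendrocyte strands 1 was called, miR-219a-2-3p (0.27, adjusted p = 0.0445), and of 6 vessel strands 1, miR-143-3p (0.46, SE 0.14, adjusted p = 0.00903). The first call was lost without any 1 of 6 libraries, with adjusted p up to 0.203 without CyrKO cerebellum replicate 2 (0.14), and the difference was 0.41 without CyrKO cerebellum replicate 3. Most other settings lost it too, among them DESeq2 (0.21, adjusted p = 0.146) and a mean of at least 10 CPM (0.13, adjusted p = 0.341). With library totals alone it stayed (0.84, adjusted p = 1.93e-05). The second was lost without CyrKO cerebellum replicate 1 (0.34, adjusted p = 0.0678) or CyrKO hippocampus replicate 1 (0.24, adjusted p = 0.0765). With library totals alone 3 of 4 and 6 of 6 were higher in hippocampus. Of 6 immune strands, 4 were called toward cerebellum and 1 toward hippocampus under TMM, while library totals gave none toward cerebellum and 2 toward hippocampus. Over all miRNAs tested, 33.2% were called toward cerebellum and 38.9% toward hippocampus under TMM. By library totals these calls numbered 126 and 419 of 746. The strand called toward hippocampus under TMM was miR-146a-5p, with means of 144 CPM in cerebellum and 505 CPM in hippocampus (1.24, SE 0.09, adjusted p = 2.77e-09).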

How the data were processed

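The members, lists and named miRNAs were chosen with earlier results of these data known. The authors deposited whole-number counts of reads per mature miRNA in a table for each tissue (1841 rows). A second set of columns holds signal values that the authors normalised, per the file headers: each is the count divided by 1 factor per library, which was checked, and they entered no test. The submitters' processing notes name cutadapt and DESeq2 1.10; for read assignment, miRNA annotation and genome build the entry is: not given in the sources used here. Tables were joined on the miRNA name, and groups were read from the labels.

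The 12 WT and CyrKO libraries were fitted together in R 4.3.3 with edgeR 4.0.16: filterByExpr (minimum count 10, minimum total 15), TMM, robust quasi-likelihood F-test, Benjamini-Hochberg adjustment over all 746 miRNAs, threshold 0.05. The SE is the log2 difference over the square root of F. Named were all miR-7 and miR-671 strands; the 12 largest calls per direction with at least 100 CPM in 1 CyrKO tissue and libraries apart; the 4 largest per direction at 5000 CPM or more; up to 4 members per list; and all called changes with the 5 next lowest p. Alternatives used DESeq2 1.42.0 and limma 3.58.1 (voom), other scalings and filters, and leaving out each library. The fit was also run on simulated counts with known changes, balanced in direction, in CyrKO hippocampus alone. These counts lacked the broad tissue differences of the data, so they do not check the scaling between tissues. Listed strands under other names or outside the tables are not analysed here.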

Additional observations from a re-analysis of the deposited data

Results flagged for a closer look

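In 3 miRNAs the tissue difference differed between genotypes by the interaction test across all 746 miRNAs (edgeR, groups of 3 being too small for a check of single outlying libraries). The CyrKO minus WT tissue difference was -2.82 for miR-7a-5p, -2.81 for miR-7b-5p and -0.77 for miR-411-3p on the log2 scale. For the guides every CyrKO library of either tissue was above every WT library of either tissue. That order concerns the genotypes rather than the tissue difference, and the share of all miRNAs with it was not counted. For miR-411-3p the call was close to the threshold. It was lost without CyrKO hippocampus replicate 2, though the change hardly moved (-0.72, adjusted p = 0.111). The call was also lost with same-numbered libraries taken as a block (-0.76, adjusted p = 0.0721).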

How the results depend on the processing

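The CyrKO tissue calls numbered 501 to 556 without each library in turn, those of at least 2-fold 279 to 301, the WT calls 490 to 536 and the changes 2 to 4. A mean of at least 10 CPM, which tests 447 miRNAs, left 355 CyrKO calls and 177 of at least 2-fold. DESeq2 called 5 changes, the 3 of edgeR with miR-409-3p (-0.64) and miR-379-3p (-0.67). The guides' CyrKO differences reversed with library totals alone (0.33 for miR-7a-5p, 0.31 for miR-7b-5p) and ranged from -0.32 to -0.16 and from -0.38 to -0.20 without each library. With the replicate block they were -0.24 (adjusted p = 0.0875) and -0.26 (adjusted p = 0.0695), no longer past the threshold, and the block called 522 CyrKO and 2 changed differences, losing miR-411-3p (-0.76, adjusted p = 0.0721). The labels do not say whether same-numbered libraries of the tissues came from 1 animal. Deviations from the group mean of same-numbered libraries correlated at -0.61, -0.48 and -0.17 in CyrKO and at 0.52, -0.56 and 0.58 in WT. With 3 libraries a group these values cannot settle the pairing. Among 75 other values for single miRNAs, miR-7b-3p (0.37) and miR-150-5p (0.25) reversed with library totals alone. The ratio difference of miR-7b-5p to miR-7b-3p ranged from -0.17 to 0.063 and of miR-7a-5p to miR-7b-5p from -0.033 to 0.064 without each library. The causes were not tested. For 256 of 746 miRNAs the 95% interval of the change passed 2-fold, and the guides are among them through the size of their change. For the rest the precision was limited, and depth and spread between libraries were not separated as sources of it.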
